A study of Mus musculus with 12 samples.

Results

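The nuclear-encoded genes of the mitochondrial respiratory chain and ATP synthase were taken from a liver RNA sequencing study by symbol and biotype. Protein-coding rows of the authors' table were taken where the symbol began with Nduf followed by a, b, c, s or v, with Uqcr, with Cox4 to Cox8 or with Atp5, or was one of Sdha, Sdhb, Sdhc and Sdhd. The rule gave 92 genes of 34986 rows, and 89 of them reached a normalized count of 1 in 6 or more libraries and were tested. The study sequenced livers of female C57BL/6 mice aged 16 weeks. VPA_OCA mice (n = 6) and VPA mice (n = 6) were compared. VPA is valproic acid, an antiepileptic drug, and OCA is taken here as obeticholic acid, an agonist of the bile acid receptor FXR. The study asked about the role of FXR in liver toxicity of valproic acid. Both groups carry VPA, so the comparison shows what differs with OCA on top of VPA. The labels used here give no dose, route or duration, and livers never given VPA were not analysed here.

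The respiratory chain passes electrons from NADH and succinate through complexes I, II, III and IV of the inner mitochondrial membrane to oxygen, and complexes I, III and IV pump protons that complex V (ATP synthase) uses to make ATP. Complex II is also the succinate dehydrogenase of the citric acid cycle and is built from nuclear genes alone, while the other complexes combine nuclear subunits with a small set encoded by mitochondrial DNA. Hepatocytes are rich in mitochondria, and valproic acid is known for interfering with mitochondrial fatty acid oxidation in liver.

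By symbol, 36 of the 92 genes were assigned to complex I, 4 to II, 8 to III, 19 to IV and 15 to V. These 82 are called subunits here. Ndufa4 was counted with complex IV, where its product is now placed. The pattern of names also took in 8 genes that encode no subunit, Ndufaf1 to Ndufaf8, which are assembly factors of complex I. Ndufa4l2 and Atp5s were set apart. Cyc1, which encodes cytochrome c1 of complex III, does not match the pattern and is described with the neighbouring lists.

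Many promoters of respiratory chain genes are known to bind NRF1 (nuclear respiratory factor 1) and ETS-family factors such as GABP. RefSeq promoter sequence (GRCm38.p6) was matched by Ensembl gene ID, or else by symbol or synonym, for 76 of the 92 genes. The 250 bases before the start of each promoter entry were searched on both strands. A gene was counted where any of its entries held the letters. The NRF1 letters GCGCA and GCGC, with any 1 base between them, occurred in 14 of the 76 (18.4%), against 4.23% of 27025 genes. The 27025 are all genes with a promoter entry and were not matched to the members in expression or GC. The ETS letters CCGGAAG occurred in 14 (18.4%), against 7.83% of all genes. The YY1 letters AAGATGGC occurred in 1 (1.32%), against 1.83%. The letters AGGTCA and TGACCT, the arms of an inverted repeat with 1 base between them that is a consensus for FXR, occurred in 0 of the 76, and in 0.0074% of all genes. The NRF1 and ETS letters do not overlap as written, and a match describes letters, not binding. The 30 bases around the NRF1 letters are shown for the 4 genes on which the results below turn and whose promoter holds them. They are written 5′ to 3′ on the strand of the gene, with the match on either strand in capitals.
Ndufa8, chr2:36049349-36049378, minus strand: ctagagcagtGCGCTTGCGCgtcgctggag
Atp5g2, chr15:102671070-102671099, minus strand: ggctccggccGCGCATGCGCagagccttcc
Sdha, chr13:74350241-74350270, minus strand: cgacacccgcgcgactcggtGCGCAAGCGC
Sdhd, chr9:50603909-50603938, minus strand: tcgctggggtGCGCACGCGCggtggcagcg
The match begins 30 bases before the start in Ndufa8, 42 in Atp5g2, 10 in Sdha and 79 in Sdhd. The start here is that of 1 RefSeq entry per gene and differs from the gene coordinates of the authors' table. By those coordinates the printed bases of Ndufa8, Atp5g2 and Sdha lie inside the gene, and those of Sdhd lie before it. Sdha has 3 such matches in its window and the other 3 genes have 1 each. These 4 genes share the letters and differ in how their transcripts varied between libraries, as given below.

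The normalized counts summed to between 20236900 and 22087711 per library. The estimated depth was 37766890 reads in VPA_OCA replicate 1 and 17879222 to 22021646 in the other 11 libraries. Summed hepatocyte markers (6 of 6 detected) ran between 1916360 and 3171550 normalized counts in VPA_OCA livers and between 2172750 and 3164260 in VPA livers, so hepatocyte transcripts were abundant in both groups. Skeletal muscle markers (11 genes) summed to 575 in VPA replicate 4 and 160 in VPA replicate 5, against 9.49 to 33.2 in the other libraries. In addition the libraries with replicate numbers 4 to 6 stood apart from those numbered 1 to 3 in both treatments, and results are therefore given with and without that division. The labels name no batch, and the division was chosen after earlier results of these data were known. In whole liver, fewer cells of a type and less RNA per cell cannot be told apart.

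No call was made for any of the 89 genes between VPA_OCA and VPA livers at an adjusted p of 0.05. By limma with Benjamini-Hochberg adjustment over 19006 genes, 0 members were higher in VPA_OCA livers, against 84 of all genes tested (0.442%), and 0 were lower, against 53 (0.279%), which makes 0.721% of all genes in either direction. At an unadjusted p under 0.05 the same fit listed 5 members (5.62%), 2 higher and 3 lower, against 9.55% of all genes, with 5.3% higher and 4.25% lower. The authors' deposited table lists 1 member with an adjusted p under 0.05, Ndufa8, among the 86 members it calls present, against 5.57% of the 12517 genes it calls present. The absence of calls does not by itself show equal values, and the intervals given below bound the differences. The median log2 fold change was 0.05 over the 89 members and -0.00 over all genes. It was positive for 54 members (60.7%), against 49.9% of all genes. The median over the members had no fixed sign, since it was -0.04 without VPA_OCA replicate 2 and 0.09 without VPA_OCA replicate 4. An absolute log2 fold change under 0.1 was found for 58 members, 0.1 to 0.25 for 26 and at least 0.25 for 5. The 95% interval lay inside a 1.5-fold change in both directions for 80 members. The 9 members whose interval reached past 1.5-fold were Ndufa8, Ndufb6, Sdhb, Cox4i2, Cox6a2, Cox6b2, Cox7a1, Ndufaf5 and Ndufa4l2, and 3 of these (Cox4i2, Cox6a2 and Cox6b2) had fewer than 10 normalized counts on average in either group.

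**Figure D1:**
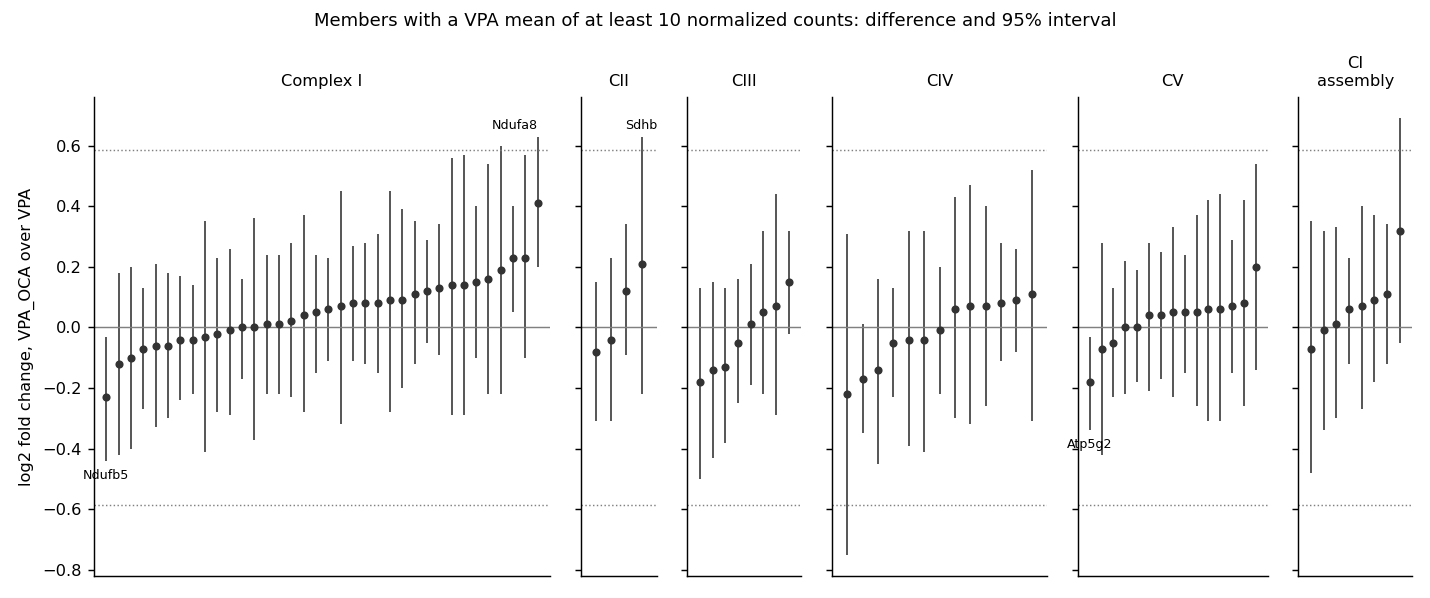
Log2 fold change of VPA_OCA over VPA livers (y axis) with its 95% interval from limma for the 84 members of complexes I to V and the complex I assembly factors with a VPA mean of at least 10 normalized counts, ordered by value within each complex (x axis). Dotted lines mark a 1.5-fold change in either direction. Ndufa8 at 0.41 is the highest, and most intervals cross 0.

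Complex I oxidises NADH and is the largest of the complexes. Of its 36 genes, 23 had a positive and 13 a negative log2 fold change, with a median of 0.05. Its summed share of the library was 0.357% ± 0.0518 in VPA_OCA livers and 0.341% ± 0.0268 in VPA livers (SD, n = 6 each), so the means were closer than the spread between mice. Ndufv1 and Ndufs1, core subunits of the module that takes electrons from NADH, had means of 3332 ± 249 and 2424 ± 174 normalized counts in VPA_OCA livers, against 3061 ± 188 and 2495 ± 207 in VPA livers. Their log2 fold changes were 0.12 ± 0.08 and -0.04 ± 0.08 (SE), with adjusted p of 0.71 and 0.94 by limma.

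Ndufa8 (ENSMUSG00000026895, chr2:36036326-36049406, minus strand, coordinates of the authors' table, GRCm38) encodes an accessory subunit of complex I and stood furthest from equality among the well-expressed members. Its normalized counts were 2121, 2967, 2550, 1988, 2178 and 2530 in VPA_OCA livers (median 2354), against 1926, 1669, 1827, 1692, 1698 and 1856 in VPA livers (median 1762). Every VPA_OCA liver lay above every VPA liver. Ndufa8 was the 1 member of 89 with that order, which held for 0.916% of all genes tested. The log2 fold change was 0.41 ± 0.10 (SE; 95% interval 0.20 to 0.63), with an adjusted p of 0.078 by limma. Livers numbered 4 to 6 gave 0.35 and livers numbered 1 to 3 gave 0.48. With a term for the division of numbers the adjusted p was 0.021, in a fit that called 1.34% of all genes higher and 2.13% in either direction, and with the replicate number as a block it was 0.064. Leaving out single libraries gave adjusted p between 0.053 (without VPA_OCA replicate 4) and 0.19 (without VPA replicate 2). The authors' deposited table gives a log2 ratio of 0.42 and an adjusted p of 0.0067. The direction was thus shared by every liver, while the side of the threshold depended on the model.

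Ndufa10, another accessory subunit, had normalized counts between 2405 and 2725 in VPA_OCA livers (median 2661), against 1863 to 2449 in VPA livers (median 2262). The groups overlapped in 1 VPA_OCA liver at 2405 and 1 VPA liver at 2449. Its log2 fold change was 0.23 ± 0.08, with an adjusted p of 0.34 by limma. Ndufb5, an accessory subunit of the membrane arm, was named after its values were seen. It had 1725 to 2108 normalized counts in VPA_OCA livers (median 1859), against 1959 to 2711 in VPA livers (median 2151). Its log2 fold change was -0.23 ± 0.10, with an adjusted p of 0.45 by limma. With correction for length and GC and a term for the division of numbers the adjusted p was 0.036, in a fit that called 476 of 19006 genes. No other alternative called a member lower. Ndufb5 overlaps Mrpl47 on the opposite strand, which averaged 286 normalized counts. Of the 92 members, 30 overlap another row of the table, and whether the counting used strand is not given in the sources used here. The other 33 complex I genes had log2 fold changes between -0.12 (Ndufb11) and 0.23 (Ndufs5).

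The complex I assembly factors build the complex and are absent from the finished enzyme. The 8 genes had log2 fold changes between -0.07 and 0.32, with a median of 0.06. Their levels were low, at 4.39 to 18.5 on a scale of FPKM recomputed with the principal transcript of each gene, against 22.9 to 309 for the complex I subunits. Ndufaf5 had 79.0 to 172 normalized counts in VPA_OCA livers (median 123), against 82.0 to 113 in VPA livers (median 91.1). The groups overlapped, and the log2 fold change was 0.32 ± 0.17 with an adjusted p of 0.61 by limma. Ndufaf7, a methyltransferase, averaged 229 ± 24.0 in VPA_OCA livers and 212 ± 23.2 in VPA livers.

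Complex II has 4 subunits, and they did not vary together. Sdha encodes the flavoprotein that oxidises succinate, Sdhb the iron-sulfur subunit, and Sdhc and Sdhd the membrane anchors. Between treatments their log2 fold changes were -0.08 ± 0.11 for Sdha, 0.21 ± 0.20 for Sdhb, 0.12 ± 0.10 for Sdhc and -0.04 ± 0.13 for Sdhd, with adjusted p of 0.79 to 0.97 by limma. The complex held 0.114% ± 0.0135 of the library in VPA_OCA livers and 0.109% ± 0.00495 in VPA livers.

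Sdhb (ENSMUSG00000009863, chr4:140961203-140979193, plus strand) had the widest spread of the 4. Its normalized counts in VPA_OCA livers were 3938, 4167 and 4227 for numbers 4 to 6 and 7905, 9028 and 7077 for numbers 1 to 3. In VPA livers they were 4645, 4524 and 4356 for numbers 4 to 6 and 6148, 5058 and 5204 for numbers 1 to 3. All VPA_OCA livers numbered 1 to 3 lay above the VPA livers with those numbers, and all VPA_OCA livers numbered 4 to 6 lay below theirs. That crossing was seen for Sdhb alone of the 89 members and for 0.41% of all genes tested. The log2 fold change was -0.13 in the livers numbered 4 to 6 and 0.55 in those numbered 1 to 3, beside the pooled 0.21. The difference of the effect, that of numbers 4 to 6 minus that of numbers 1 to 3, was -0.68 ± 0.16 on the log2 scale, with an adjusted p of 0.25 by limma.

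Sdha moved the other way with the numbers. It had 9027 to 10400 normalized counts in the 6 livers numbered 4 to 6 and 7093 to 8742 in the 6 numbered 1 to 3, with no overlap, a log2 difference of 0.27. Sdhb, Sdhc and Sdhd were lower in every liver numbered 4 to 6 than in any numbered 1 to 3, by log2 differences of -0.61, -0.28 and -0.35. Genes for subunits of 1 enzyme thus differed in opposite directions between the same livers. Of all genes tested, 5.65% were higher in every liver numbered 4 to 6 than in any numbered 1 to 3. A further 4.97% were lower in the same way, and the division was made after the data were known.

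**Figure D2:**
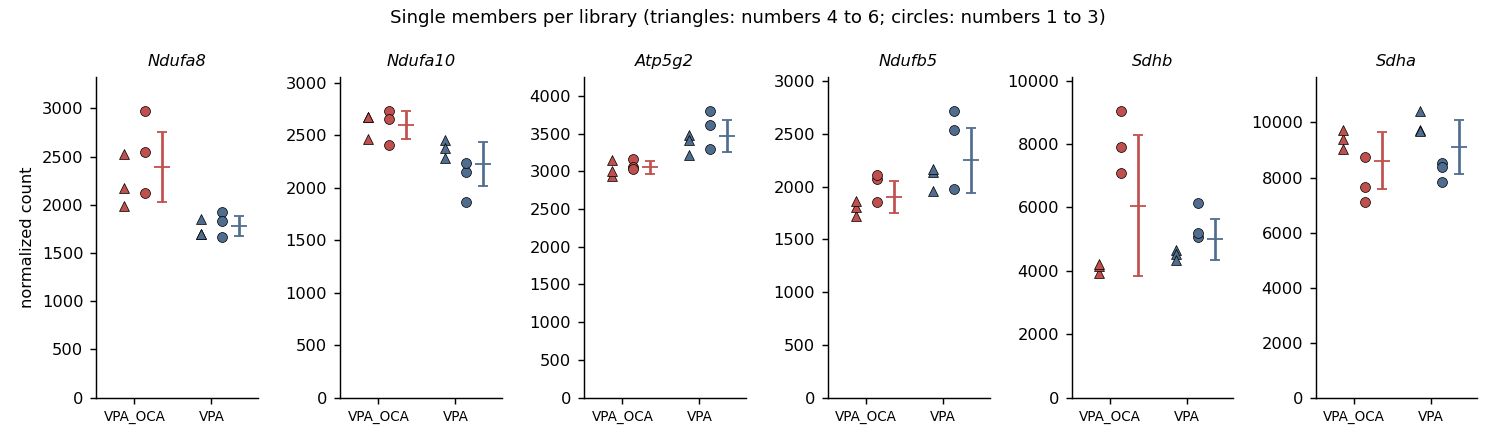
Normalized count (y axes, from 0) of 6 members in each VPA_OCA and VPA liver (x axes), with numbers 4 to 6 as triangles, numbers 1 to 3 as circles, and the mean with its SD (n = 6) beside each group. Ndufa8 and Atp5g2 separate the treatments, Sdhb and Sdha separate the numbers, and Sdhb has its 3 highest values in VPA_OCA livers numbered 1 to 3.

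Complex III hands electrons from ubiquinol to cytochrome c. Of its 8 genes, 4 had positive and 4 negative log2 fold changes, between -0.18 and 0.15, with a median of -0.02, and all 8 intervals lay inside a 1.5-fold change. Uqcrc1, a core protein, averaged 5831 ± 442 normalized counts in VPA_OCA livers and 5243 ± 185 in VPA livers, a log2 fold change of 0.15 ± 0.08 with an adjusted p of 0.60 by limma. Uqcrh, the hinge protein, averaged 4422 ± 739 in VPA_OCA livers and 5070 ± 1146 in VPA livers, a log2 fold change of -0.18 ± 0.15 with an adjusted p of 0.78 by limma. Leaving out VPA replicate 1 gave -0.09 and leaving out VPA replicate 4 gave -0.27. Uqcrfs1, the Rieske iron-sulfur protein, was closest to equal among these 3, at 4805 ± 560 in VPA_OCA livers and 4744 ± 354 in VPA livers. For each of the 3 the groups overlapped.

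Complex IV, cytochrome c oxidase, reduces oxygen and has several subunits with alternative isoforms for heart and muscle, lung or testis. Its 19 genes split into 12 with group means above 3000 normalized counts and 7 isoforms that were low or listed at 0. Among the abundant ones Cox4i1 had 6203 to 12520 normalized counts in VPA_OCA livers and 6247 to 9411 in VPA livers, a log2 fold change of 0.07 ± 0.15. Cox5a averaged 3336 ± 291 in VPA_OCA livers and 3132 ± 137 in VPA livers. Cox8a, the general form of subunit VIII, averaged 4685 ± 413 in VPA_OCA livers and 5266 ± 341 in VPA livers, a log2 fold change of -0.17 ± 0.09 with an adjusted p of 0.56 by limma. None of these differences passed the test. The complex held 0.276% ± 0.0502 of the library in VPA_OCA livers and 0.270% ± 0.0314 in VPA livers.

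The tissue-restricted isoforms were sparse. Cox7b2 and Cox8c were listed at 0 in all 12 libraries. Cox4i2, the lung form, ranged up to 4.16 normalized counts in VPA_OCA livers and up to 4.03 in VPA livers. Cox7a1, a heart and muscle form, was the most abundant of the 7, at 48.2 ± 19.3 in VPA_OCA livers and 53.2 ± 9.02 in VPA livers, against 3167 ± 561 and 3519 ± 800 for Cox7a2. Cox6b2, known from testis, had 0 to 4.29 normalized counts in VPA_OCA livers (median 3.12), against 3.16 to 14.8 in VPA livers (median 6.54). The groups overlapped, and the log2 fold change was -1.38 ± 0.46 with an adjusted p of 0.27 by limma, at values of a few reads per library.

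Cox8b and Cox6a2, the heart and muscle forms of their subunits, were highest in the VPA liver that carried most muscle transcripts. Cox8b reached 1.04 normalized counts in 1 VPA_OCA liver and was at 0 in the other 5, and in VPA livers it was 14.1 in replicate 4 and 0 to 2.08 in the others. Cox6a2 was 0 to 3.25 in VPA_OCA livers, against 13.1 in VPA replicate 4, 6.24 in VPA replicate 5 and 0 to 2.01 in the other VPA livers. The summed muscle markers in those 2 livers were 575 and 160. Their part in the values was not tested. Both isoforms were thus near 0 in the 10 livers with few muscle transcripts.

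Complex V makes ATP. Its 15 genes had log2 fold changes between -0.18 and 0.20, with a median of 0.05, 11 positive and 4 negative, and all 15 intervals lay inside a 1.5-fold change. Atp5b, the catalytic beta subunit, was the most abundant member by count, at 25102 ± 2432 in VPA_OCA livers and 25037 ± 1396 in VPA livers. Atp5e, the epsilon subunit, averaged 3231 ± 981 in VPA_OCA livers and 2726 ± 224 in VPA livers, with a log2 fold change of 0.20 ± 0.16, which was 0.06 without VPA_OCA replicate 2 and 0.32 without VPA_OCA replicate 4. The complex held 0.517% ± 0.0620 of the library in VPA_OCA livers and 0.502% ± 0.0293 in VPA livers.

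Atp5g2 (ENSMUSG00000062683, chr15:102662864-102672352, minus strand) is 1 of 3 genes for the c subunit, the membrane ring of the enzyme. Its normalized counts were 3160, 3051, 3027, 2933, 3149 and 3005 in VPA_OCA livers, against 3793, 3302, 3608, 3213, 3476 and 3413 in VPA livers. Every VPA_OCA liver lay below every VPA liver, which held for this 1 member of 89 and for 0.526% of all genes. The log2 fold change was small, -0.18 ± 0.07, and the adjusted p was 0.41 by limma. The other c subunit genes differed less, with log2 fold changes of 0.07 ± 0.10 for Atp5g1 and -0.05 ± 0.08 for Atp5g3. The 3 genes encode the same mature protein, and Atp5g3, at 7801 ± 456 in VPA_OCA livers and 8064 ± 584 in VPA livers, was the one with the most counts.

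Levels between genes can be compared only per length, and here the length matters. The FPKM values of the authors divide by a length column, and most subunit transcripts are short: the median length was 745 bases over the 92 members and 1824 over all genes tested, and 75.3% of the tested members were under 1000 bases, against 16.6% of all genes. That column equals the mean length of all listed transcripts of a gene, within 1%, for 97.6% of 19245 genes with 2 or more of them. Short fragments and long retained-intron forms then count as much as the principal transcript. The principal transcript of GENCODE M21 was more than 1.5 times the column's length for 25 members, and the column was more than 1.5 times the principal transcript for 6. Both lengths were within 10% of each other for 33 members.

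The order of levels changed with that choice. Sdha has a length of 771 bases in the column and a principal transcript of 2900. Its FPKM of 538 ranked 5 of the 92, while its level per principal transcript was 143 and ranked 43. Atp5l has 1939 bases in the column and 544 in the principal transcript, and ranked 53 by FPKM and 6 by principal transcript. Ndufa11, with 2661 and 545 bases, ranked 77 and 55. Per principal transcript the highest levels were those of Ndufa4, at 665 ± 172 in VPA_OCA livers and 625 ± 118 in VPA livers, and of Atp5b, at 616 ± 60.7 in VPA_OCA livers and 610 ± 27.3 in VPA livers. Next came Atp5g3, Cox4i1 and Cox6c, at 511 ± 36.4, 525 ± 133 and 514 ± 153 in VPA_OCA livers, against 524 ± 34.8, 489 ± 62.2 and 475 ± 90.6 in VPA livers. Atp5b and Atp5g3 did not overlap within their SD in either group, while the other neighbours named here did. By FPKM the highest was Atp5b at 1342. Dividing by this length does not alter fold changes between treatments, since it is the same in every library. The median log2 fold change over all genes was nonetheless lower for longer genes. It was 0.05 under 600 bases, 0.05 for 600 to 1000, 0.01 for 1000 to 2000, -0.02 for 2000 to 4000 and -0.07 above 4000. Over the members it was -0.02, 0.07, 0.04 and 0.08 in the same bins up to 4000 bases.

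**Figure D3:**
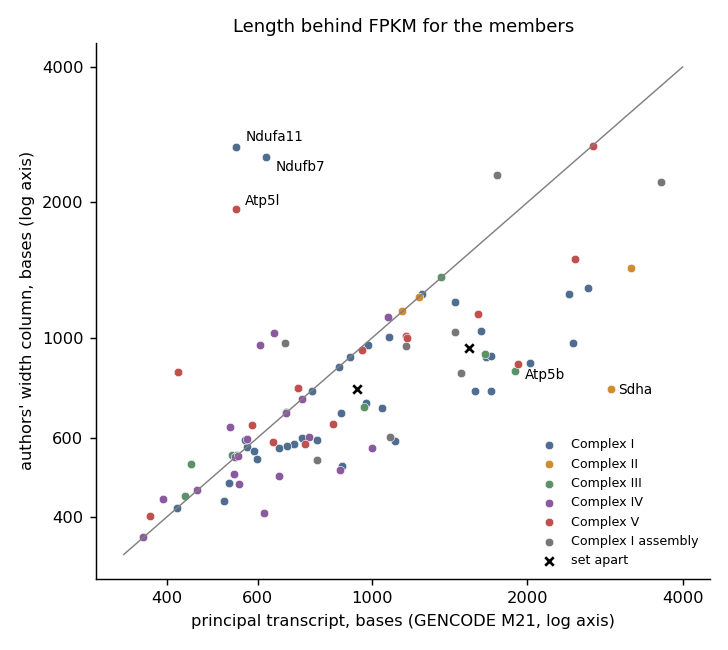
Length in the authors' table (y axis, bases, log axis) against the principal GENCODE M21 transcript (x axis, bases, log axis) for the 92 members, coloured by complex, with the line of equality. Sdha (771 against 2900) lies far below the line and Ndufa11, Ndufb7 and Atp5l far above it.

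The larger differences among the members ran with replicate number. The 92 genes together held 1.45% ± 0.203 of the library in VPA_OCA livers and 1.40% ± 0.104 in VPA livers, with ranges of 1.18% to 1.73% and 1.29% to 1.58% that overlapped. By number they held 1.18% to 1.38% in the 6 livers numbered 4 to 6 and 1.41% to 1.73% in the 6 numbered 1 to 3, which did not overlap. The log2 difference of numbers 4 to 6 minus 1 to 3 had a median of -0.24 over the members and -0.02 over all genes tested, and it was negative for 73 of 89. These values describe a division that was made after the data were known, so no test is given for it.

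All livers numbered 4 to 6 lay below all numbered 1 to 3 for 19 members (21.3%), against 4.97% of all genes tested. Among them were Ndufb2, Ndufb4, Ndufb6, Ndufb8, Ndufb9, Ndufc1 and Ndufc2 of complex I, Sdhb, Sdhc and Sdhd of complex II, Uqcrq of complex III, Cox4i1, Cox7b and Cox7c of complex IV, and Atp5c1, Atp5f1, Atp5h and Atp5k of complex V. All livers numbered 4 to 6 lay above for 2 members, Sdha and Ndufv3, against 5.65% of all genes. The 7 complex I genes named here encode accessory subunits of the B and C series, which sit in the membrane arm, and the core subunits Ndufv1 and Ndufs1 had differences of -0.04 and -0.07. In complex V, the subunits Atp5c1, Atp5f1, Atp5h and Atp5k had -0.37 to -0.49, against -0.15 for Atp5b and -0.14 for Atp5a1. The difference was thus uneven within complexes.

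**Figure D4:**
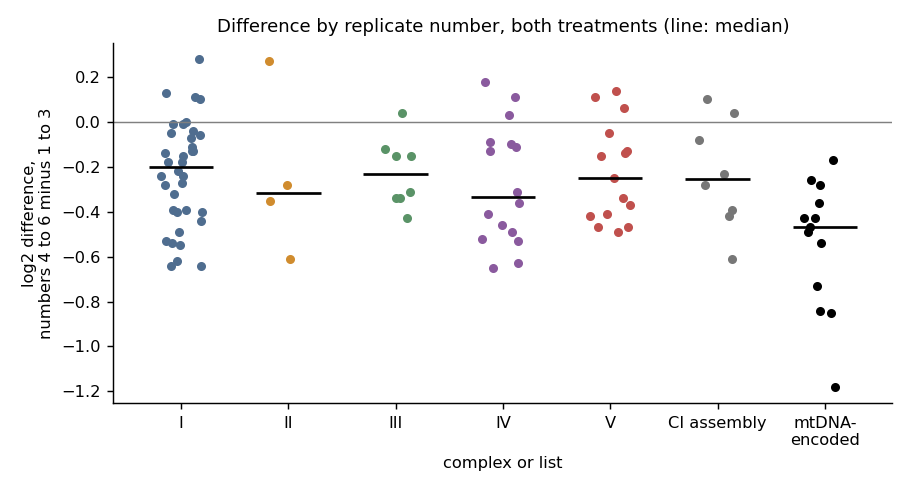
Log2 difference of livers numbered 4 to 6 minus those numbered 1 to 3, both treatments together (y axis), for each tested member by complex or list (x axis), with the median as a line. Medians run between -0.20 (complex I) and -0.33 (complex IV) for the nuclear complexes and -0.47 for the subunits encoded by mitochondrial DNA, and Sdha at 0.27 stands alone in complex II.

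Over all genes this difference ran with the length in the authors' table. The median over all genes under 600 bases was -0.18, over those of 600 to 1000 bases -0.08, over those of 1000 to 2000 bases -0.01, over those of 2000 to 4000 bases 0.00, and over those above 4000 bases 0.03. The members had -0.27, -0.19 and -0.24 in the first 3 of these bins and -0.08 in the fourth, which holds 5 of them. After a loess correction for length in each library the median was -0.16 over the members and -0.04 over all genes, after correction for GC fraction alone -0.26 and -0.02, and after both -0.15 and -0.02. After both corrections all livers numbered 4 to 6 lay below all numbered 1 to 3 for 25 members (28.1%), against 4.30% of all genes. The median of the members was thus nearer 0 after correction for length and not after correction for GC alone. Summed endothelial markers were 1253 to 2156 normalized counts in numbers 4 to 6 and 1082 to 1444 in numbers 1 to 3, and Kupffer cell markers 3638 to 7674 and 2751 to 5232. Hepatocyte markers were 2564420 to 3171550 in numbers 4 to 6 and 1916360 to 2854820 in numbers 1 to 3. The part of these cell types in the difference was not tested.

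Single libraries also stood out across the complexes. Of the 79 tested subunits, 52 had their highest value in VPA_OCA replicate 2 and 40 had their lowest in VPA_OCA replicate 4. The median log2 deviation of the subunits was 0.31 in VPA_OCA replicate 2 and -0.28 in VPA_OCA replicate 4, and between -0.15 and 0.20 in the 6 VPA livers. VPA_OCA livers thus spanned a wider range than VPA livers. The median log2 fold change over the members was -0.05 within numbers 4 to 6 and 0.14 within numbers 1 to 3, against 0.00 over all genes in both. The difference of the treatment effect between the sets passed the adjusted p of 0.05 by limma for 0 members (smallest adjusted p 0.25), against 0.0105% of all genes, and reached an unadjusted p under 0.05 for 5 members, against 8.36% of all genes.

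**Figure D5:**
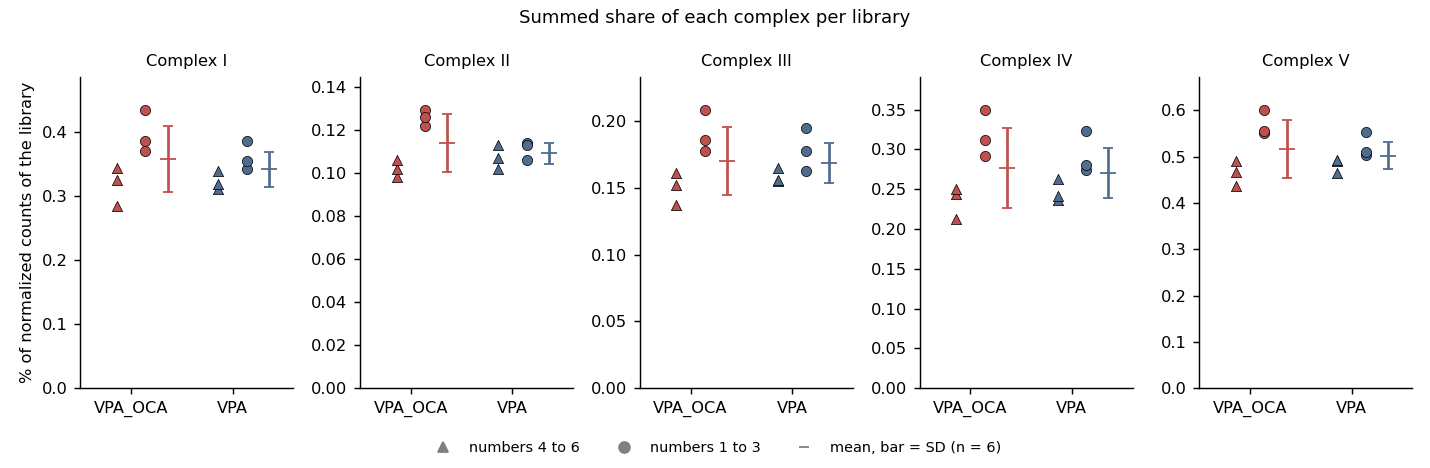
Share of the normalized counts of each library (y axes, percent, from 0) in the genes of complexes I to V, for VPA_OCA and VPA livers (x axes), with numbers 4 to 6 as triangles, numbers 1 to 3 as circles, and the mean with its SD (n = 6). The treatments overlap in every complex, and in both of them the triangles lie below most circles, apart from VPA replicate 4 in complex II. That liver is at 0.113%, against 0.106% to 0.114% for the VPA circles.

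The subunits encoded by mitochondrial DNA join the nuclear ones in complexes I, III, IV and V. All 13 were tested and 0 passed by limma, with 0 at an unadjusted p under 0.05. Their median log2 fold change was -0.08. mt-Nd4l and mt-Nd4, both of complex I, had the smallest p, with log2 fold changes of -0.30 ± 0.16 and -0.29 ± 0.20 and adjusted p of 0.62 and 0.73. Together the 13 held 7.12% to 10.7% of the library in VPA_OCA livers and 5.84% to 11.7% in VPA livers. By number they held 5.84% to 7.51% in livers numbered 4 to 6 and 9.09% to 11.7% in those numbered 1 to 3. All 13 were lower in numbers 4 to 6, by log2 differences of -0.17 to -1.18. The ratio of these transcripts to the 92 nuclear ones was 5.24 to 6.81 in VPA_OCA livers and 4.51 to 7.51 in VPA livers. The libraries were made from total RNA, and mitochondrial transcripts read here are those the kit retained.

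Neighbouring genes of the pathway also gave no calls between treatments. Of 8 tested genes outside the pattern of names, 0 passed by limma. At an unadjusted p under 0.05, which 9.55% of all genes reached, there was 1. This was Etfdh, which feeds electrons from fatty acid oxidation to ubiquinone, at 3850 ± 629 normalized counts in VPA_OCA livers and 4854 ± 549 in VPA livers, a log2 fold change of -0.34 ± 0.12 with an adjusted p of 0.28. Cyc1 averaged 4855 ± 436 in VPA_OCA livers and 4586 ± 354 in VPA livers. Cytochrome c itself (Cycs) averaged 1919 ± 578 in VPA_OCA livers and 1549 ± 279 in VPA livers, with an adjusted p of 0.68 by limma.

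Of 33 tested assembly genes of complexes II to V, 0 passed by limma, and their median log2 fold change was 0.07. An unadjusted p under 0.05 was found for 3 of them, against 9.55% of all genes. The 7 further assembly genes of complex I that the pattern of names missed, such as Timmdc1 and Acad9, had log2 fold changes between -0.01 and 0.15, and 0 passed by limma, adjusted or not. Sco2, a copper chaperone of complex IV, averaged 969 ± 189 normalized counts in VPA_OCA livers and 752 ± 136 in VPA livers. Its log2 fold change was 0.36 ± 0.14, with an adjusted p of 0.41 by limma. With the term for numbers the adjusted p was 0.028, in a fit that called 2.13% of all genes. Coa4, another complex IV factor, averaged 135 ± 22.6 in VPA_OCA livers and 109 ± 11.2 in VPA livers. Of 14 regulators of mitochondrial gene expression, 0 passed by limma, with 0 at an unadjusted p under 0.05 and a median of -0.07. Nrf1, whose product is the factor of the letters printed above, averaged 166 ± 11.9 in VPA_OCA livers and 166 ± 20.9 in VPA livers. Gabpa, for the ETS factor subunit, averaged 689 ± 104 in VPA_OCA livers and 658 ± 66.2 in VPA livers. Ppargc1a, a coactivator of mitochondrial biogenesis, averaged 265 ± 57.6 in VPA_OCA livers and 303 ± 70.2 in VPA livers, and the estrogen-related receptor gene Esrrg 74.6 ± 26.4 and 113 ± 47.0, with an adjusted p of 0.59 by limma. The transcripts of these factors thus differed by less than the test could call.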

How the data were processed

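Total RNA of 12 flash-frozen livers (Trizol, TruSeq RNA kit, per the labels' protocols) was analysed from 1 deposited table. The tool edgeR (version not given) and the build GRCm38.p5 appear in the submitters' processing notes; aligner, counter and strand setting were not given in the sources used here. The deposited values are normalized counts per gene, a signal scaled per library, per the file headers; 79.6% to 84.6% of low values lay within 0.1 of a whole multiple of 1 read, which did not allow whole reads to be recovered, and a count test was not run. FPKM values, p-values, log2 ratios, the GC fraction and the length of each gene are deposited beside them, per the file headers. Values written with a decimal comma exceeded their true size 1000 times, so they were divided by 1000. Sample titles gave the groups and the replicate numbers.

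The 19006 genes that reached a normalized count of 1 in 6 or more libraries were compared as log2(value + 1) by limma 3.58.1 in R 4.3.3 (intensity trend, group as the only term, 2-sided, Benjamini-Hochberg over all genes, threshold 0.05). Fold changes are on that scale, which understates those of low genes. Nothing in the labels says how replicates were kept, so p-values measure the spread between these samples. Estimated depth, and so precision for low genes, was like in all libraries except VPA_OCA replicate 1. The code was tested on simulated data. The deviations of same-numbered samples of both groups correlated in all 6 pairs (0.150 to 0.478 over 11481 genes), so the numbers were taken to pair the samples by a rule on the data (all above 0.1). The best-correlated VPA partner had the same number for replicates 1 and 3 alone, while those of replicates 2, 4, 5 and 6 had the numbers 1, 6, 6 and 4. The division of numbers 4 to 6 from 1 to 3, present in both groups, can meet this rule without pairs. The rule therefore cannot show pairing, and the main comparison did not use it. The labels do not say what a number marks.

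Members and lists were chosen with earlier results of these data known. Genes named with a fold change are the 2 of each complex and of the assembly factors with the smallest p and a set of core subunits; others are named for level, isoform or the count they belong to. How reads shared with processed pseudogenes were counted is not given in the sources used here. Alternatives covered filter, pseudocount, scaling, FPKM, variance model, replicate block, number term, length and GC corrections, and left-out libraries. Versions were Python 3.11.15, pandas 2.3.3 and matplotlib 3.10.9.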

Additional observations from a re-analysis of the deposited data

Results flagged for a closer look

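Among 78 groups of 6 values examined for a sample far from the others, 3 were set off by a gap larger than the critical share of the range, and chance sets off about 1 in 20. Cox8b had 1.04 normalized counts in VPA_OCA replicate 6, against 0 in the other VPA_OCA livers. Cox8b had 14.1 normalized counts in VPA replicate 4, against 0 to 2.08 in the other VPA livers. The estimated depth of VPA_OCA replicate 1 was 37766890 reads, against 19683964 to 21130528 in the other VPA_OCA livers.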

How the results depend on the processing

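Of 32 alternatives, 12 left out 1 library each. The count of members called higher in VPA_OCA livers was 0 in the main comparison and 1 (Ndufa8) with the threshold at 0.10, with the term for numbers (adjusted p 0.021 by limma) and with length and GC correction plus that term (0.013). The count called lower was 1 in that last fit (Ndufb5, adjusted p 0.036) and 0 in the others; leaving out 1 library gave 0 and 0. All genes called were 137, against 223 at the threshold of 0.10, 404 with the term for numbers, 476 with length and GC correction plus that term, 72 in numbers 4 to 6 alone, and 93 to 148 without 1 library. With the replicate block that uses the pairing by number, 210 genes were called, and 255 with both corrections added; the block called 0 members. The median of complex II was -0.09 in numbers 4 to 6 alone and that of complex IV 0.15 in numbers 1 to 3 alone.

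Of 619 values for the 20 named genes, 590 kept direction and side of the threshold, 3 passed it and 26 changed sign, none of them called. In numbers 4 to 6 alone these were Atp5e -0.03, Cox4i1 -0.05, Cox5a -0.02, Ndufaf5 -0.02, Sdhb -0.13 and Uqcrfs1 -0.09. In numbers 1 to 3 alone they were Atp5b 0.09 and Ndufs1 0.01. Array weights gave Cox4i1 -0.01 and Uqcrfs1 -0.00. Without VPA replicates 4 and 5 Cox4i1 was -0.02. Atp5b was 0.01 by total-count scaling and by FPKM. Uqcrfs1 was -0.01 with length correction and -0.02 with both corrections plus the term or the block. Leaving out 1 library gave -0.04 to 0.03 for Atp5b, -0.05 to 0.15 for Cox4i1 and -0.04 to 0.05 for Uqcrfs1. Leaving out 1 library gave medians of -0.04 to 0.09 over all members, -0.02 to 0.11 for complex I, 0.02 to 0.09 for II, -0.07 to 0.01 for III, -0.11 to 0.03 for IV, -0.03 to 0.08 for V and -0.01 to 0.10 for complex I assembly, and log2 fold changes of 0.08 (without VPA_OCA replicate 2) to 0.31 (without VPA_OCA replicate 4) for Sdhb. The cause was not tested. The 95% intervals of 9 members reached past a 1.5-fold change, and isoforms with a few reads carry no usable fold change.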
